A study of Homo sapiens with 3 samples.

Results

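Among the p300/CBP peaks of MDA-MB-231 cells there were 2139 wide sites that each held exactly 1 peak in cells given a control siRNA and exactly 1 in cells given siRNA against Fra-1, and at 1286 of them (60.1%) the peak was wider after siFra-1. These 1286 pairs were chosen from the 2 deposited peak lists, which held 82901 peaks (siCTL) and 39320 peaks (siFra-1). Both peaks of a pair had to be at least 250 bp wide, lie on chromosomes 1 to 22 or X, share at least 1 bp and overlap no other peak of the other list. The siFra-1 peak then had to be the wider of the 2. The other pairs were narrower in siFra-1 (509) or equally wide (344). The 1286 pairs held 35.3% of the 3644 wide siCTL peaks and 21.5% of the 5968 wide siFra-1 peaks on these chromosomes. The siFra-1 list thus had fewer peaks in all but more wide ones.

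MDA-MB-231 is an established human line labelled as triple-negative breast cancer of the basal b type, and no other line was used. Both groups received 4.5 nM siRNA and were fixed for 7 min at 72 h, siCTL with a control siRNA and siFra-1 with a mix of 3 siRNAs to Fra-1, with no other agent or genetic change named. Chromatin bound by p300/CBP was immunoprecipitated and sequenced, and replicate immunoprecipitations had been pooled, so there was 1 library per condition (an input sample was not analysed here). The knockdown and the identity of the cells could not be checked, because the lists hold positions only, with no read number, height or RNA level. No difference between siCTL and siFra-1 could therefore be set against a spread between replicates, and no p-value is given. All intervals are 95% intervals over pairs that cover counting error only, and neighbouring pairs are not independent.

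FOSL1 codes for Fra-1, a Fos protein that binds DNA with a Jun partner as AP-1, at the palindromic motif TGAGTCA or its reverse complement TGACTCA. p300 and CBP are related lysine acetyltransferases without a sequence-specific DNA-binding domain of their own. They are brought to enhancers and promoters by transcription factors, and in basal breast cancer cells AP-1 often shares such enhancers with TEAD factors, the DNA-binding partners of YAP and TAZ, and with RUNX factors.

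The following sequences are shown because the pairs were compared by their AP-1 content. Each is the 250 bp window of GRCh37 (hg19), plus strand, centred on the middle of the interval common to both peaks, from the pairs with the largest gains in width. The first 6 hold 1 AP-1 motif each, in capitals. They lie at chr17:64544352-64544601 in an intron of PRKCA, chr6:44026302-44026551 in an intron of the long non-coding RNA gene SCIRT (nearest protein-coding TSS TMEM63B), chr9:132096402-132096651 in an intron of LINC01503 (nearest IER5L), chr5:135394277-135394526 in an intron of TGFBI, chr17:57863977-57864226 in an intron of VMP1 (nearest PTRH2) and chr2:110859027-110859276 in an intron of MALL.
PRKCA: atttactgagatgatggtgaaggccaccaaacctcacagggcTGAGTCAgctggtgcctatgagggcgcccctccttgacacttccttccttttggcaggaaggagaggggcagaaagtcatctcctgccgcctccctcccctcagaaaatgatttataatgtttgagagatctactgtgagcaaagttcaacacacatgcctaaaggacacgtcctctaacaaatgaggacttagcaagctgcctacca
TMEM63B: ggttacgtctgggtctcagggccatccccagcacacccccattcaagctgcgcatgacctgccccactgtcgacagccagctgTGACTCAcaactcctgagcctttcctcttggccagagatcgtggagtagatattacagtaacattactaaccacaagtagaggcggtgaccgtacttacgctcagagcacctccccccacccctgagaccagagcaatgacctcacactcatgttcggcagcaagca
IER5L: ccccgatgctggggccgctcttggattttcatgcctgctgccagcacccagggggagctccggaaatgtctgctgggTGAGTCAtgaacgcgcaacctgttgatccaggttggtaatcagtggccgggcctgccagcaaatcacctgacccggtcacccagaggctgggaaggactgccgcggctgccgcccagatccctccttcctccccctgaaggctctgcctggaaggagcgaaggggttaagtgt
TGFBI: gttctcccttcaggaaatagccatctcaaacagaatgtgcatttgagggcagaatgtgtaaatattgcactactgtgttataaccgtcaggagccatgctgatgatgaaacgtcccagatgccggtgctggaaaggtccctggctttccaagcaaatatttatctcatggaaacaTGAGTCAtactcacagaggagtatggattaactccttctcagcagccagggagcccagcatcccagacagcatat
PTRH2: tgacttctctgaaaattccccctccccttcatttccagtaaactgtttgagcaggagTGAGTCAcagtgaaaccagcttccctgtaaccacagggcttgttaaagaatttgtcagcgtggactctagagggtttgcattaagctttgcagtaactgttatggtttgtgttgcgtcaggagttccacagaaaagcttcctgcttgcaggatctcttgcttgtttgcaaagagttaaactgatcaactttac
MALL: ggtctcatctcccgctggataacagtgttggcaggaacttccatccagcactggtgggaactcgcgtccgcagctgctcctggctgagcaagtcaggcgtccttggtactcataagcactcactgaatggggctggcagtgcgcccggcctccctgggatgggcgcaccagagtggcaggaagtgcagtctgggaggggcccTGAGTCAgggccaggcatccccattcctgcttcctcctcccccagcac
In these 6 windows the motif stands as TGAGTCA or TGACTCA at different places, and none of the windows holds a second copy. The next 2 hold no AP-1 motif. They lie at chr20:3788702-3788951 between genes (nearest AP5S1) and chr13:73712952-73713201 between genes (nearest KLF5), and are in lower case throughout.
AP5S1: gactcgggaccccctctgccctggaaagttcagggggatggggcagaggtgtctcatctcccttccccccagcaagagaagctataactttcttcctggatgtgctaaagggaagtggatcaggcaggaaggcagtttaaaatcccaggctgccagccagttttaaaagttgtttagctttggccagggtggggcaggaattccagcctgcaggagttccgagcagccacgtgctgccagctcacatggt
KLF5: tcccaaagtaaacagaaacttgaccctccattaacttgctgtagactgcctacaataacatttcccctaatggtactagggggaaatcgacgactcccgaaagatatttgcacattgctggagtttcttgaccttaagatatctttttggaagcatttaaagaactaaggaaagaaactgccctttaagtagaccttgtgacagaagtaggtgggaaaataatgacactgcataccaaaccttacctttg
Neither window holds the TEAD motif GGAATG or its reverse complement CATTCC, or the RUNX motif TGTGGT or ACCACA.

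Width was the value by which the pairs were chosen, so it is given as a description. The siCTL peaks were 250 to 1350 bp wide with a median of 350 bp, and the siFra-1 peaks 300 to 1600 bp with a median of 500 bp. The mean width was 400 ± 151 bp (SD over 1286 pairs) in siCTL and 555 ± 186 bp in siFra-1. The gain had a median of 150 bp, quartiles of 50 and 200 bp and a maximum of 750 bp, and the median ratio of the widths was 1.33. In all, siCTL peaks covered 513.9 kb at these sites and siFra-1 peaks 714.2 kb. All edges lie on a grid of 50 bp, and 357 pairs gained a single step of 50 bp, 274 gained 100 bp, 235 gained 150 bp, 254 gained 200 or 250 bp and 166 gained 300 bp or more. The first step just outside the choice held 344 pairs of equal width, and the next 224 pairs that were 50 bp narrower.

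**Figure D1:**
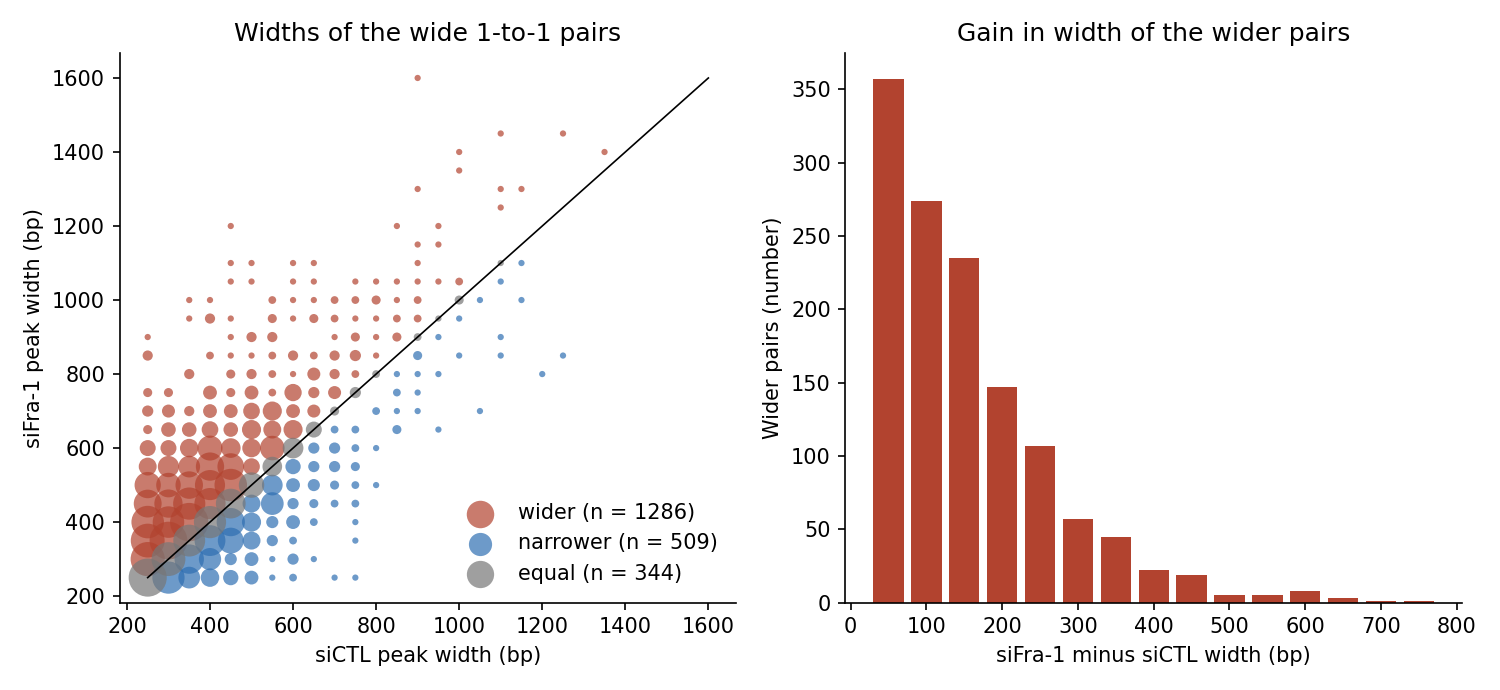
Left, width of the siFra-1 peak against width of the siCTL peak (bp) for the 2139 wide pairs, with larger points where more pairs share the same widths and the line of equal width. Right, number of wider pairs at each gain in width (bp), which falls from 357 pairs at 50 bp to 1 pair at 750 bp.

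Of all wide pairs 60.1% were wider in siFra-1 (Wilson interval 58.0% to 62.2%), 43.4% were wider by at least 100 bp, 20.8% by at least 1.5-fold and 5.89% by at least 2-fold. Since these shares come from the contrast used for the choice, nothing is read from them about the conditions. A wider peak from more cells with p300/CBP at the site and from more p300/CBP per cell cannot be told apart here, and the libraries differed in a processing value, of unstated meaning, whose part in the widths was not tested. All 23 chromosomes had over 50% of wider pairs, with 51.5% for chromosome 19 (35 of 68 pairs) at the low end and 80.0% for chromosome 21 (24 of 30) at the high end. The share was lower at larger siCTL widths, going from 79.8% of 326 pairs at 250 bp to 50.8% of 248 pairs at 450 bp and 47.3% of 186 pairs at 650 to 950 bp. At 250 bp, however, the rule leaves no room for a narrower pair. When the siFra-1 peak could have any width, the 525 pairs with a siCTL peak of 250 bp divided into 260 wider and 199 narrower ones. Just under the minimum, 620 pairs had a siCTL peak of 200 bp, and 290 of them were wider.

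The gain was mostly an extension of the siCTL interval rather than a shift. The siFra-1 peak contained the whole siCTL peak in 1102 pairs (85.7%). Both edges had moved outwards in 614 pairs (47.7%), the left edge alone in 259 (20.1%) and the right edge alone in 229 (17.8%). In the other 184 pairs (14.3%) 1 edge had moved out and the other in.

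The largest gain was in an intron of PRKCA, the gene of protein kinase C alpha, where a siCTL peak of 450 bp (chr17:64544252-64544701) lay in a siFra-1 peak of 1200 bp (chr17:64543602-64544801). Of the 750 bp gained, 650 bp lay on the left side, and the site was 246 kb from the PRKCA TSS. The next largest was in an intron of the long non-coding RNA gene PVT1 on chromosome 8, which measured 900 bp in siCTL and 1600 bp in siFra-1, the widest siFra-1 peak of all 1286. This one grew at the right edge only. At chr20:3788002-3789101, 12.3 kb from the TSS of AP5S1, an adaptor protein subunit, the width was 450 bp in siCTL and 1100 bp in siFra-1. In the intron of SCIRT (chr6:44026152-44027151) it was 350 and 1000 bp.

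KLF5 codes for a zinc finger transcription factor of epithelial cells. In the stretch between genes 84 kb from its TSS a siCTL peak of 250 bp lay in a siFra-1 peak of 900 bp (chr13:73712352-73713251), the highest ratio of all members, 3.60. A further 4 of the 10 largest gains were all of 600 bp and between genes. They measured 450 and 1050 bp at chr20:48384702-48385751 (nearest SLC9A8, a sodium-proton exchanger), 400 and 1000 bp at chr14:75447402-75448401 (nearest EIF2B2, a translation initiation factor subunit), 350 and 950 bp at chr6:11609402-11610351 (nearest TMEM170B) and 250 and 850 bp at chr5:123155102-123155951 (nearest CSNK1G3, a casein kinase). In 7 of these 10 pairs the siFra-1 peak was longer at both edges by at least 100 bp. None of the 10 lay in a promoter window, and 2 held AP-1 in the central 250 bp.

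A ratio of 3.40, with 250 bp in siCTL and 850 bp in siFra-1, was shared by the CSNK1G3 site and 3 others. These were in LINC01503 (chr9:132096302-132097151), in an intron of NXN (chr17:854902-855751), which encodes nucleoredoxin, and 50.4 kb from the TSS of SMURF2 (chr17:62708452-62709301), a ubiquitin ligase that limits TGF-beta signalling. After the PVT1 site, the widest siFra-1 peaks had been wide already in siCTL. They measured 1100 and 1450 bp at chr1:98788602-98790051, 329 kb from the TSS of DPYD, 1250 and 1450 bp at chr1:218878952-218880401, 361 kb from that of TGFB2, 1000 and 1400 bp at chr17:16913702-16915101 near MPRIP, and 1350 and 1400 bp at chr14:102746002-102747401 in an intron of MOK. The MPRIP peak held 4 AP-1 motifs over its whole siFra-1 width and the MOK peak 2, while those near DPYD and TGFB2 held none.

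Sequence was not used to choose the pairs, so motif content could be compared between the classes of width change. The central 250 bp held AP-1 in 459 of 1286 wider pairs, 35.7% (Wilson interval 33.1% to 38.3%), in 138 of 344 equal pairs, 40.1% (35.1% to 45.4%), and in 260 of 509 narrower pairs, 51.1% (46.7% to 55.4%). The wider pairs thus held it less often than the narrower ones, by 15.4 percentage points (Newcombe interval of the difference, wider minus narrower, -20.4 to -10.3). Against the equal pairs the difference was -4.42 points, with an interval that included 0 (-10.3 to 1.28). When the same windows were moved by 2 kb the shares were 4.59%, 4.65% and 4.03%, and the motif was present in 4.34% of 35116 RefSeq promoter windows of the same length. All 3 classes were therefore far above background, and the wider pairs were the lowest of them.

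**Figure D2:**
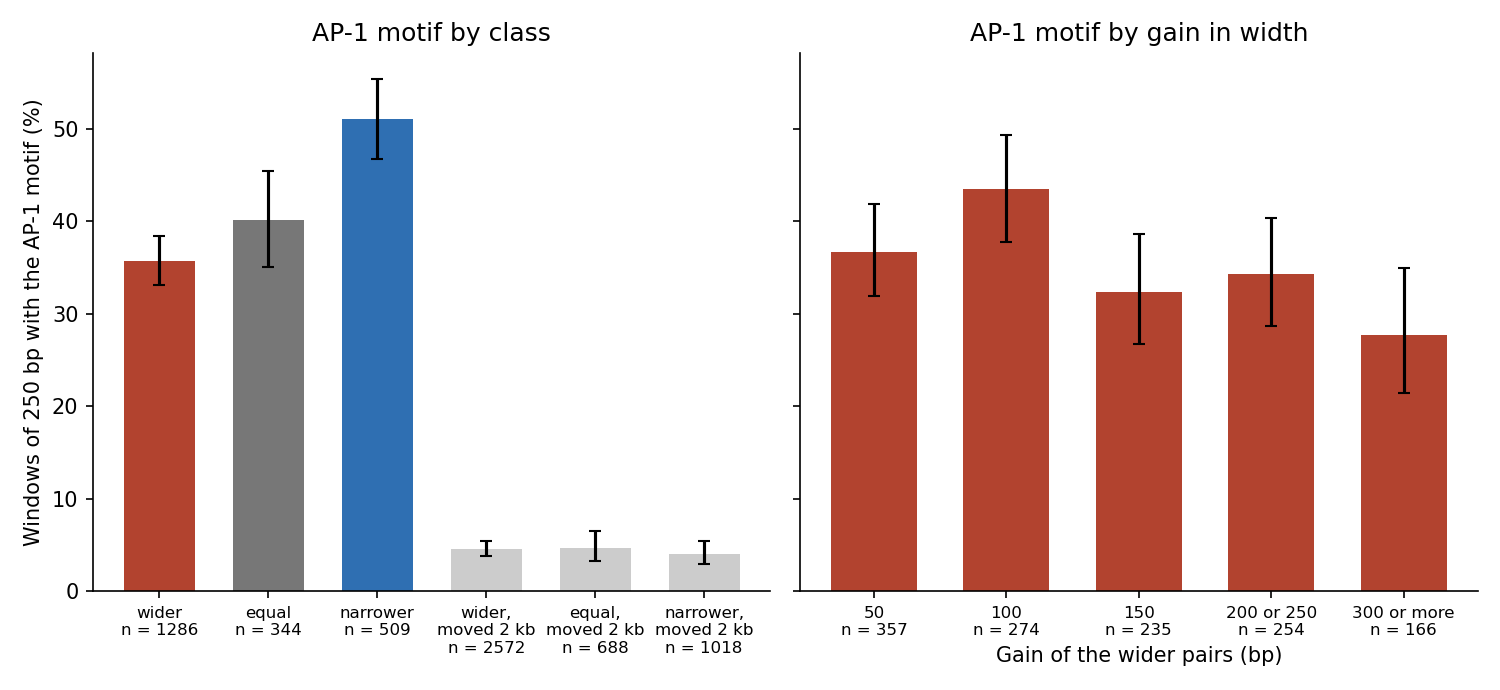
Share of 250 bp windows with the AP-1 motif (%), with Wilson 95% intervals as bars. Left, the 3 classes of wide pairs and the same windows moved by 2 kb, where wider pairs stand at 35.7% and narrower pairs at 51.1%. Right, the wider pairs by gain in width, from 36.7% at 50 bp to 27.7% at 300 bp or more.

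Within the wider pairs the AP-1 share did not fall evenly with the gain. It was 36.7% at a gain of 50 bp, 43.4% at 100 bp, 32.3% at 150 bp, 34.3% at 200 or 250 bp and 27.7% at 300 bp or more (21.5% to 35.0%). Neighbouring steps had overlapping intervals. That of the 166 pairs with the largest gains lay under that of the 274 pairs at 100 bp (37.7% to 49.4%) but overlapped those of all the other steps. As this sets the lowest step against the highest, no trend is read from it. Narrower pairs started from wider siCTL peaks (median 450 bp), so the classes were also compared at like width, first by the mean of the 2 peaks. Above 300 and up to 400 bp the motif was present in 37.1% of 415 wider and 52.2% of 182 narrower pairs, above 400 and up to 500 bp in 36.9% of 377 and 56.3% of 135, and above 500 bp in 32.4% of 389 and 51.6% of 124. At 250 to 300 bp the shares were 38.1% of 105 and 36.8% of 68, with overlapping intervals. With the narrower pairs weighted to the mean widths of the wider pairs the difference was -16.4 points, and weighted to their siFra-1 widths -15.2. By siCTL width alone it was smaller, -9.00 points when weighted (-15.5 to -2.52). At a siCTL width of 250 to 300 bp the shares were 35.6% of 483 wider and 34.0% of 47 narrower pairs and above 300 and up to 400 bp 37.2% of 387 and 45.7% of 140, with overlapping intervals. Above 400 and up to 500 bp they were 34.5% of 200 and 57.7% of 142, and above 500 bp 34.3% of 216 and 54.4% of 180. At a siCTL width of 250 bp, where 260 wider pairs stood, the rule leaves no narrower pair. All 47 narrower pairs of the step of 250 to 300 bp thus had 300 bp, and the -9.00 points rest in part on this unlike match.

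AP-1 was 1 of 11 motifs searched, and the interval of wider minus narrower pairs excluded 0 for 2 of them. The other was the forkhead motif TGTTTAC (or GTAAACA), present in 9.41% of wider and 6.29% of narrower pairs, a difference of 3.12 points (0.258 to 5.61). Over the whole common interval, away from large assembly gaps, it was found in 12.9% of 1220 wider pairs (11.1% to 14.9%) and 7.99% of 488 narrower pairs (5.90% to 10.7%). These intervals were longer in the wider pairs (mean 393 and 380 bp). Per kb the forkhead motif stood at 0.344 (exact Poisson interval 0.293 to 0.401) and 0.226 (0.163 to 0.306), which overlap. The TEAD motif was present in the central window of 39.2% of wider and 35.8% of narrower pairs, and the RUNX motif in 33% and 30.8%. The intervals of these differences included 0 (-1.57 to 8.29 and -2.72 to 6.79 points), as did that of the C/EBP motif TTGCNNAA (16.6% and 13.6%, interval -0.696 to 6.53). Among windows without AP-1, TEAD or RUNX was found in 519 of 827 wider pairs (62.8%) and 161 of 249 narrower pairs (64.7%), and among windows with AP-1, TEAD in 139 of 459 (30.3%) and 82 of 260 (31.5%). The intervals of both differences included 0 (-8.49 to 5.02 and -8.38 to 5.64 points). Against the equal pairs the order was another, as the C/EBP difference of 4.43 points excluded 0 (0.0926 to 8.15) and the forkhead difference of 3.30 did not (-0.0818 to 6.001).

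Some sites lay close to centromeres, where satellite repeats contain the TEAD consensus many times. At most 1 Mb from a gap of 1 Mb or more in the assembly there were 66 wider, 21 narrower and 28 equal pairs, and 20 of these 66 held more than 5 TEAD motifs in the siFra-1 peak, up to 92. Without them the AP-1 difference was -15.2 points (-20.3 to -9.99) and the forkhead difference 3.20 (0.215 to 5.79), and against the equal pairs the C/EBP difference was 3.92, with an interval that included 0 (-0.725 to 7.90). Motifs per kb are given below only for the 1216 wider and 487 narrower pairs that were away from such gaps and held at most 5 TEAD motifs, a restriction set after the values had been seen.

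In the interval common to both peaks the wider pairs held 1.37 AP-1 motifs per kb (exact Poisson interval 1.27 to 1.48) and the narrower pairs 1.96 (1.76 to 2.17). For TEAD the order was the opposite, with 1.71 per kb (1.60 to 1.84) in wider and 1.43 (1.26 to 1.61) in narrower pairs, intervals that met at their ends. RUNX stood at 1.53 (1.42 to 1.64) and 1.30 (1.14 to 1.48). All 3 motifs were concentrated at the centre of the wider pairs. In the 100 bp on its left and right TEAD reached 1.97 and 2.28 per kb, against 0.650 and 0.567 in the outermost bins at 900 to 1000 bp.

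**Figure D3:**
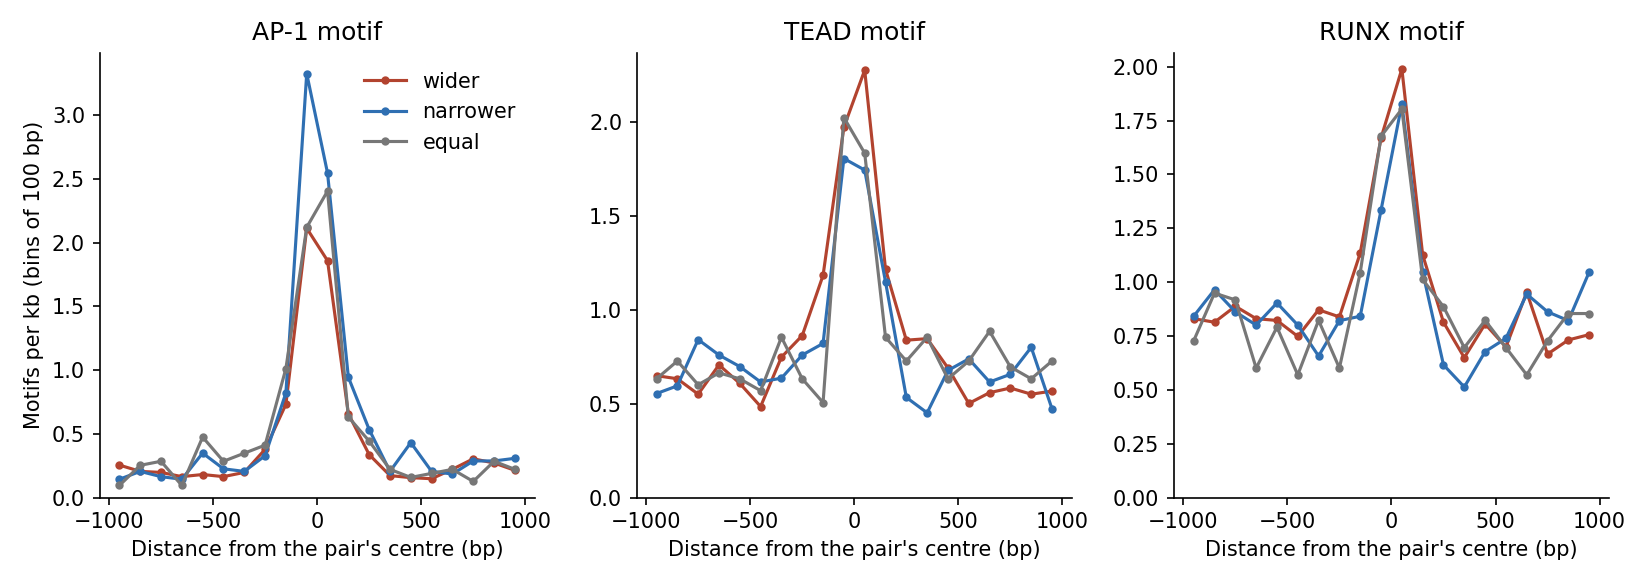
AP-1, TEAD and RUNX motifs per kb in bins of 100 bp against the distance from the middle of the common interval (bp), for 1216 wider, 487 narrower and 316 equal pairs. In wider pairs TEAD rises from 0.650 per kb at the left end to 2.28 per kb at the centre, and the AP-1 peak of the narrower pairs is the highest of the 3 classes.

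The sequence gained in siFra-1 was poorer in all 3 motifs than the common interval. The part of the siFra-1 peaks that lay outside the siCTL peaks came to 202.15 kb and held 0.326 AP-1 motifs per kb (0.253 to 0.415), above 0.148 (0.100 to 0.212) in stretches of the same length just outside the siFra-1 peaks. TEAD stood at 0.984 per kb (0.852 to 1.13) in the gained part and 0.618 (0.515 to 0.737) just outside. For RUNX the values were 0.816 (0.696 to 0.951) and 0.678 (0.569 to 0.801), which overlap. The outside stretches lie farther from the centre by construction, and AP-1 fell with distance in all 3 classes, so nothing particular to gained sequence is read from this contrast. Over all pairs AP-1 stood at 0.636 per kb (0.455 to 0.867) in the part of narrower pairs only in siCTL. The part of wider pairs only in siFra-1 had 0.312 (0.241 to 0.397). The gained sequence rarely brought in AP-1 where the common interval had none. Of 1286 wider pairs 507 (39.4%) held AP-1 only in the common interval, 24 (1.87%) in both parts and 37 (2.88%) only outside it, and 718 (55.8%) had no AP-1 motif in the siFra-1 peak.

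**Figure D4:**
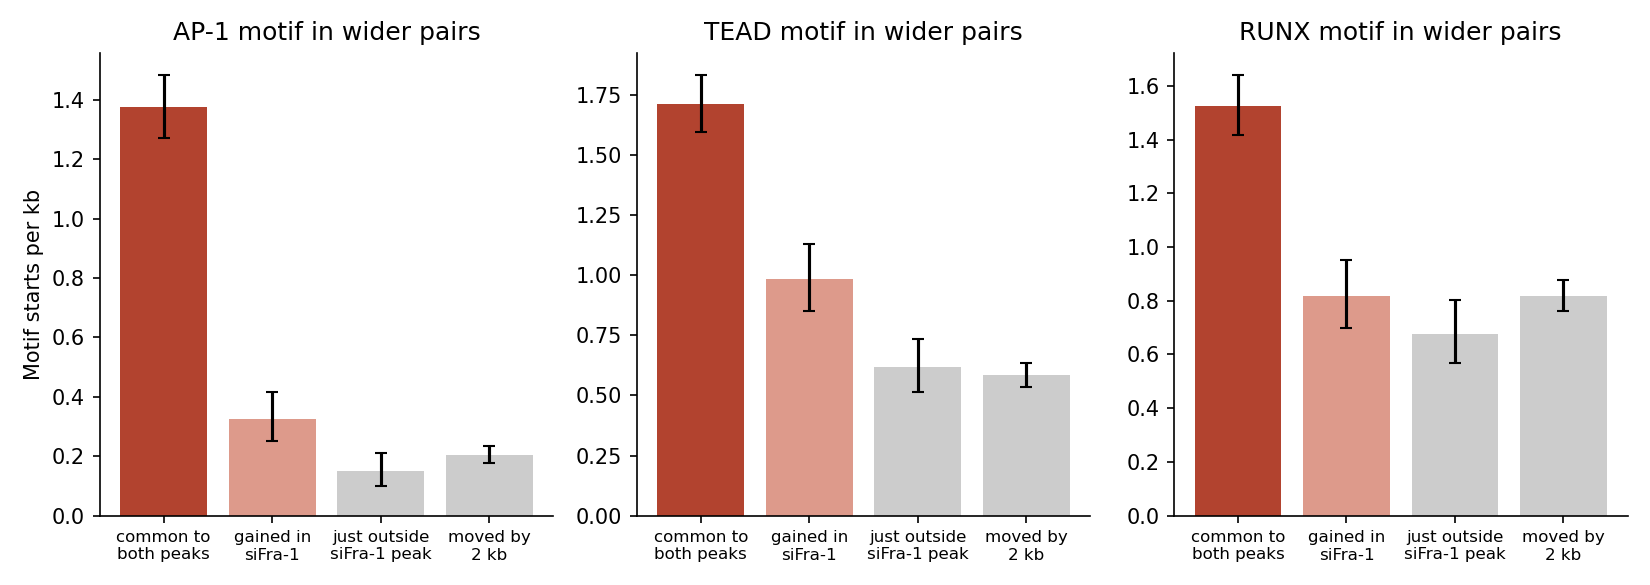
Motif starts per kb in 1216 wider pairs for AP-1, TEAD and RUNX, with exact Poisson 95% intervals as bars, in the interval common to both peaks, in the part gained in siFra-1, in stretches of the same length just outside the siFra-1 peak and in the common interval moved by 2 kb. For AP-1 the gained part stands at 0.326 per kb, between 1.37 in the common interval and 0.148 outside.

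The 435 wider pairs with exactly 1 AP-1 motif in the siFra-1 peak were used to see which peak was centred on it. The motif lay at a median of 67.5 bp from the middle of the siCTL peak and 70.5 bp from that of the siFra-1 peak. It was nearer to the siCTL middle in 185 pairs, nearer to the siFra-1 middle in 184 and equally far in 66. Neither peak was thus centred closer to the motif in most pairs.

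By position relative to genes no share of the wider pairs differed from that of the narrower pairs by more than counting error. A 3 kb window centred on a protein-coding TSS was reached by 49 wider pairs, 3.81% (2.89% to 5.00%), and by 17 narrower pairs, 3.34%, a difference of 0.470 points (-1.68 to 2.19). Among equal pairs the share was 7.27%, which exceeded that of the wider pairs (wider minus equal -3.46 points, -6.82 to -0.870). By the middle of the common interval 9.18% of wider pairs were exonic, 56.0% intronic and 34.8% intergenic, and none of these shares differed from that of the narrower pairs beyond counting error. Wider pairs lay at a median of 52.8 kb and narrower pairs at 46.9 kb from the closest protein-coding TSS, and the median GC content of the central window was 47.8% and 49.2%.

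Genes were linked to pairs through the nearest protein-coding TSS within 100 kb, which says nothing of regulation by the site. Of 20090 protein-coding genes 660 (3.29%) were nearest to at least 1 wider pair and 325 (1.62%) to at least 1 narrower pair. Most of the 660 had a single wider pair, 84 had 2, 26 had 3, 9 had 4 and 5 had 5. With 5 wider pairs each stood LIF, a cytokine of the interleukin 6 family (and 1 narrower pair), TNS4, a focal adhesion protein, and CCN1, a matrix protein and YAP target, beside 2 genes with only an Ensembl number. With 4 each stood PTTG1IP, SPRY4, an inhibitor of ERK signalling, ITGA3, the integrin alpha-3 subunit (and 1 narrower pair), TUBD1, FRMD6, BHLHE40, MTCL1, CELF2 and ZMIZ1.

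A further wide pair of any class was found within 20 kb of 489 wider pairs, 38.0% (35.4% to 40.7%), of 32.8% of narrower pairs and of 40.1% of equal pairs. The difference between wider and narrower pairs was 5.22 points (0.273 to 9.98), and that between wider and equal pairs -2.09 points, with an interval that included 0 (-7.97 to 3.62). Pairs near large assembly gaps were kept in these shares, and the difference was not repeated without them. A pair and its neighbour can each count the other, which the intervals do not cover. Runs of 6 wider pairs with gaps of at most 50 kb, and with no narrower or equal pair between them, stood near TUBD1 and PTRH2 (101.6 kb), PTTG1IP and ITGB2 (59.95 kb), TNS4 and CCR7 (71.95 kb) and CCN1 and DDAH1 (68.75 kb). The run near LIF had 5 wider and 1 narrower pair within 17.3 kb, and those near BCAR3 and PRSS23 had 5 wider and no narrower pair. The 2 longest runs, with 9 wider pairs each, were close to centromeres on chromosomes 10 (nearest ZNF33B, with 2 narrower and 4 equal pairs among them) and 16 (nearest SHCBP1, with 1 narrower). On chromosome 4 (nearest CWH43) a run of 6 wider pairs held 4 narrower and 7 equal ones and a run of 5 held 2 narrower ones, both near a large gap. The run of 4 near ID1, with no narrower or equal pair, was near a large gap too.

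Of the 13 genes for Fos, Jun and related AP-1 proteins 3 had a wider pair nearby and 2 a narrower one. The largest gains were at MAFK, with 300 bp in siCTL and 550 bp in siFra-1, at JUN, with 300 and 500 bp, and at FOSL2, the gene of Fra-2, with 700 and 850 bp. JUN had 3 wider pairs and 1 narrower, and FOSL2 2 wider pairs, 1 equal and none narrower. None of the 4 RUNX genes on the list (RUNX1 to RUNX3 and their partner CBFB) had a wide pair of any class within 100 kb as its nearest gene.

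The 25 Hippo effectors and TEAD targets, which report YAP and TAZ activity in many epithelial cells, had 10 genes with a wider pair and 3 with a narrower one. They had 19 wider pairs against 4 narrower and 5 equal, beside 60.1%, 23.8% and 16.1% of all wide pairs. CCN1 had 5 wider pairs, none narrower and none equal, the largest of them with 400 bp in siCTL and 650 bp in siFra-1. CCN2 had 300 and 400 bp at its TSS, ANKRD1 had 700 and 900 bp 0.307 kb from its TSS, and CRIM1 had 400 and 700 bp, the largest gain of the list. AMOTL2, an inhibitor of YAP, had 3 wider pairs, of which the largest measured 400 and 600 bp.

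Among 25 genes of the TGF-beta and SMAD pathway 7 had a wider and 3 a narrower pair. Beside SMURF2, the largest gains were at TGFBI, a TGF-beta induced matrix protein, with 400 bp in siCTL and 950 bp in siFra-1, at TGFBR2, the type II receptor, with 400 and 850 bp, and at ID1, a target of BMP signalling, with 550 and 900 bp. SMAD3, a receptor-activated mediator, had 3 wider, 1 narrower and 1 equal pair. Of 12 genes for factors of mesenchymal transition none had a wider and 1 had a narrower pair.

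The 27 receptor tyrosine kinases and feedback genes of the ERK pathway had 11 genes with a wider and 3 with a narrower pair. They had 17 wider pairs against 4 narrower and 5 equal, beside 60.1%, 23.8% and 16.1% of all wide pairs. SPRY4 had 4 wider pairs, the largest with 350 bp in siCTL and 800 bp in siFra-1, and SPRY1 had 2, the larger with 400 and 550 bp. The phosphatase genes DUSP1 (550 and 700 bp), DUSP5 (550 and 750 bp) and DUSP6 (600 and 750 bp) each had a wider pair. The receptor gene AXL had 650 and 850 bp in an intron, EPHA2 had 250 and 450 bp, and EGFR had 1 wider pair, of 550 and 650 bp, and 2 narrower ones.

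Of 31 integrin, adhesion and actin genes 12 had a wider and 8 a narrower pair. ITGA3 had 350 bp in siCTL and 800 bp in siFra-1, ITGB1, the common integrin beta-1 subunit, had 250 and 650 bp, TNS3 had 450 and 700 bp, and CD44, the hyaluronan receptor, had 400 and 650 bp. Of 25 extracellular matrix genes 5 had a wider and 1 a narrower pair, with 250 and 550 bp at FBLN1 and 350 and 550 bp at LOXL2.

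Of 19 protease and urokinase genes 4 had a wider and 4 a narrower pair. PLAU, the gene of urokinase, had 1 wider pair, of 600 and 750 bp, and 2 narrower ones. Of 20 chemokine and cytokine genes 3 had a wider and 4 a narrower pair. These 3 were LIF (1000 and 1350 bp at its largest gain), CXCL8 (250 and 500 bp) and CCL20 (900 and 1050 bp). Of 20 luminal breast identity genes 2 had a wider and 2 a narrower pair, the former EHF, with 250 and 600 bp, and KRT8, with 350 and 400 bp. Of 21 glycolysis genes 2 had a wider and none a narrower pair, ENO1 with 250 and 500 bp and SLC2A1, the glucose transporter GLUT1, with 600 and 650 bp.

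These 12 lists were drawn up with AP-1 and this cell line in mind. In 8 of them the share of genes near a wider pair was above 10%, beside 3.29% of all protein-coding genes (1.62% for a narrower pair). The background holds many genes that are silent in these cells, so nothing particular to a list is read from its count. Nor is anything read from its pairs, as 60.1% of all wide pairs were wider, 23.8% narrower and 16.1% equal.

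The study had also measured RNA with arrays after siFra-1 in separate samples, and the names of the genes it called lower or higher were used to sort the wide pairs by their nearest gene. Near genes that were higher after siFra-1, 57 of 69 pairs were wider, 82.6% (Wilson interval 72.0% to 89.8%). Near genes that were lower, 25 of 59 were wider, 42.4% (30.6% to 55.1%), and 21 were narrower. The difference was 40.2 percentage points (Newcombe interval 23.7 to 54). Near all other genes 761 of 1279 pairs were wider, 59.5% (56.8% to 62.2%), close to the 60.1% of all wide pairs, so the 2 lists departed from it in opposite directions. The median gain of the wider pairs was 200 bp near genes that were higher, 100 bp near genes that were lower and 150 bp near other genes. Starting widths were not matched between the lists, although the share of wider pairs was lower at larger siCTL widths. The siCTL median of wider pairs was 400 bp near both lists. Near genes that were lower it was 550 bp for narrower and 450 bp for equal pairs, and near genes that were higher 475 and 350 bp. How much of the difference goes with starting width was not tested.

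Counted by gene, 42 of 51 genes that were higher had wider and no narrower pairs, and 4 had narrower and no wider pairs. Of 35 genes that were lower, 10 had wider and no narrower pairs, and 13 the reverse. Over all genes nearest to a wide pair within 100 kb, 660 had at least 1 wider pair and 352 had none. Most genes with a pair thus had a wider one whatever their array response, and the counts by gene are a description. Among genes that were higher, large gains were at ITPK1, an inositol phosphate kinase (500 bp in siCTL and 900 bp in siFra-1), TSPAN2, a tetraspanin (300 and 700 bp), and ABTB2 (450 and 800 bp). Among genes that were lower the largest was at TNFRSF6B, a decoy receptor for Fas ligand, with 900 and 1300 bp. AP-1 stood in 33.3% of the wider pairs near genes that were higher (19 of 57, 22.5% to 46.3%) and in 40% of those near genes that were lower (10 of 25, 23.4% to 59.3%), which overlap.

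**Figure D5:**
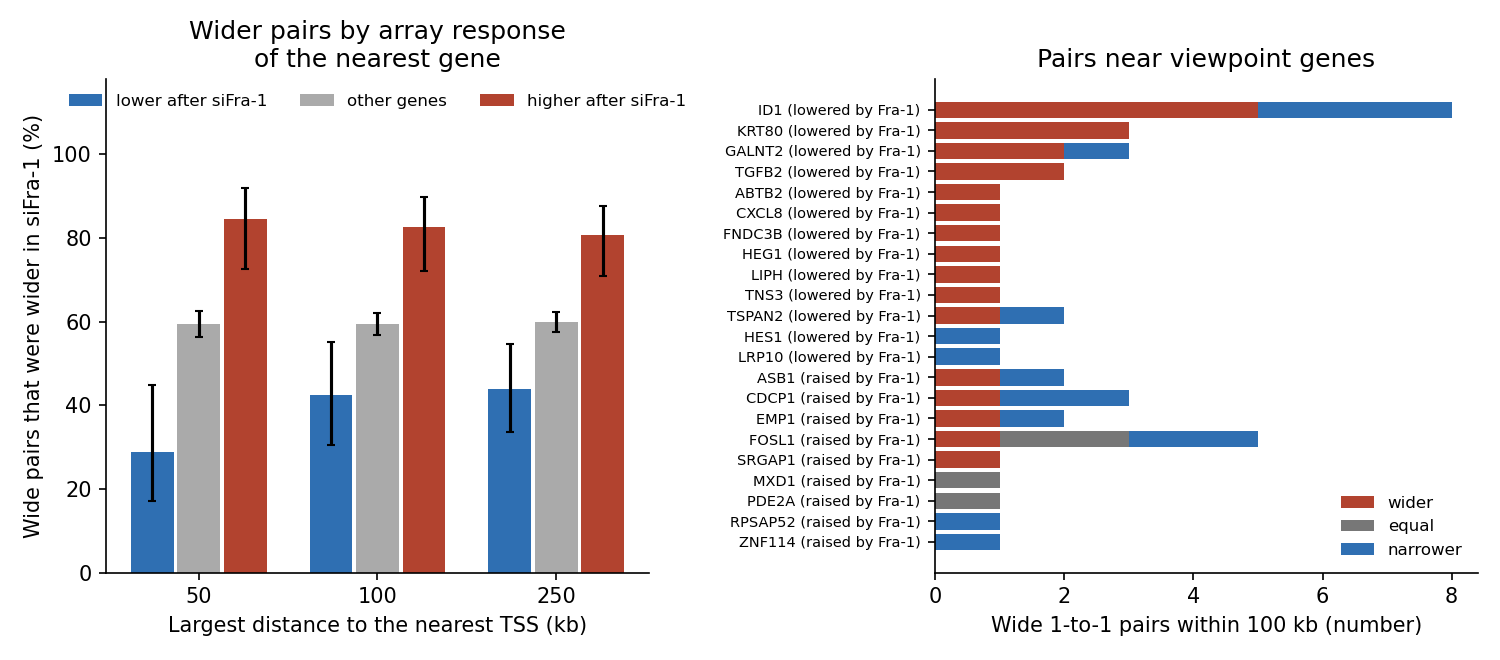
Left, share of wide pairs that were wider in siFra-1 (%, Wilson 95% intervals as bars) near genes that were lower or higher after siFra-1 by arrays and near other genes, for 3 limits on the distance to the TSS. At 100 kb the shares are 42.4%, 59.5% and 82.6% for lower, other and higher genes. Right, number of wider, equal and narrower pairs within 100 kb of each viewpoint gene that had any, with 5 wider and 3 narrower pairs at ID1.

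The study followed the chromatin contacts of the promoters of 34 genes it called raised or lowered by Fra-1, and all 34 genes matched the annotation. It classed EMP1, SMAD6 and TES as redundantly regulated, a group that by its definition changed only when both Fra proteins were depleted. KRT80, HEG1 and PDE2A it classed as regulated by both in a complementary way. Within 100 kb of their TSS, whichever gene was nearest, the 18 genes lowered by Fra-1 had 19 wider, 7 narrower and no equal pairs, and 11 of them had at least 1 wider pair. ID1, close to a large gap, had 5 of these 19 wider and 3 of the 7 narrower pairs. The 16 genes raised by Fra-1 had 5 wider, 8 narrower and 4 equal pairs, and 5 had a wider one. By the same rule 1787 of 20090 protein-coding genes (8.89%) had a wider pair. As 27 of the 34 genes are also on the array lists, these counts are not independent of the shares just given, and the study had chosen the genes for their response.

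At the TSS of CXCL8, the gene of interleukin 8, the peak measured 250 bp in siCTL (chr4:74606102-74606351) and 500 bp in siFra-1 (chr4:74606102-74606601). Across the TSS of KRT80, a keratin gene, a peak with its middle 0.153 kb upstream, in an intron of LINC00592, measured 500 and 900 bp (chr12:52585602-52586501). Both genes are lowered by Fra-1, and both peaks were longer after siFra-1 mainly on the right side. At ID1 the wider pair nearest to the TSS measured 400 and 650 bp (chr20:30191802-30192451) and the next 550 and 900 bp (chr20:30198102-30199001). HEG1, an endothelial adhesion receptor, had 550 and 950 bp at a site 7.29 kb upstream of its TSS, in an exon of another gene with only an Ensembl number, and TSPAN2 had 300 and 700 bp in an intron at 26.7 kb.

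Further genes lowered by Fra-1 also had wider pairs. LIPH, a phospholipase, had 400 bp in siCTL and 600 bp in siFra-1, TNS3 had 450 and 700 bp, TGFB2, a TGF-beta ligand, had 450 and 650 bp, GALNT2, a glycosyltransferase of the Golgi, had 250 and 550 bp, and FNDC3B had 300 and 500 bp. Among genes raised by Fra-1, ASB1 had 300 and 500 bp 0.582 kb from its TSS, EMP1 had 400 and 650 bp, CDCP1, a transmembrane protein of invasive cells, had 300 and 450 bp beside 2 narrower pairs, and SRGAP1 had 600 and 650 bp. Near FOSL1 itself 1 pair was wider (750 and 850 bp, 15.3 kb from the TSS), 2 were narrower and 2 were equal. For enhancers bound by both Fra proteins in regions contacting these promoters, the paper reported unchanged p300/CBP signal at IL8 (CXCL8), GALNT2, ASB1, RPSAP52 and SSFA2. At TGFB2, SMAD6 and EDN1 it reported an increase, and at HES1 and MYO10 a decrease. HES1 and RPSAP52 each had 1 narrower pair here and no wider one, and SMAD6, EDN1, MYO10 and SSFA2 (ITPRID2) had no wide pair. Over the active enhancers bound by both Fra proteins genome-wide, the paper found decreased signal at more peaks than increased signal. The largest group there changed little or not at all. Signal at such enhancers is another measure than peak width within 100 kb of a TSS, and whether the sites coincide was not tested.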

How the data were processed

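p300/CBP ChIP-seq peaks were taken from 2 deposited lists, 1 for siCTL and 1 for siFra-1, each from 1 library of pooled immunoprecipitations. The authors mapped reads to hg19, by their methods with BWA, whereas the submitters' processing notes name Bowtie2. They binned the signal in steps of 50 bp with PASHA, scaled it, subtracted background and called runs above a threshold of 25 (gap of 50 bp, run of 50 bp) in the Integrated Genome Browser. The deposited values are chromosome, start and end, with no height or score, so the depth of each sample and the precision it gives are unknown. A fixed threshold after scaling means that a difference in enrichment or scaling between the libraries changes peak width as a difference in occupancy would.

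Pairs were formed with own functions in Python 3.11.15, numpy 2.4.6, pandas 2.3.3 and scipy 1.17.1, tested on simulated data (all 3000 simulated pairs and all 1000 planted motifs were recovered), and plots were drawn with matplotlib 3.10.9. Lists were read as BED, with starts raised by 1 for printing, so a start may be 1 bp off. Genes came from GENCODE release 44 lifted to GRCh37, sequences from GRCh37 and promoter windows for the motif background from RefSeq (GRCh38.p14). Motifs were exact matches on both strands. The 11 motifs were AP-1, CRE TGACGTCA, TEAD GGAATG, RUNX TGTGGT, ETS CCGGAA, C/EBP TTGCNNAA, NF-kB, GR ACANNNTGT, forkhead TGTTTAC, E-box CAGCTG and SP/KLF GGGCGG. Shares have Wilson, differences Newcombe, densities exact Poisson intervals, at 95%.

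Named sites were the 10 largest gains, the 5 largest ratios, the 5 widest siFra-1 peaks, up to 20 pairs nearest to viewpoint genes and up to 4 genes per list by gain. The genes with most pairs, the runs of pairs, AMOTL2, CCN2, SMAD3, SPRY1, AXL, EPHA2, EGFR and the DUSP genes were named after their values had been seen. Printed sequences were the first 6 pairs with and 2 without AP-1 in order of gain, leaving out chromosome 8 and untranslated regions. Of the 10 largest gains 1 site is not reported here. The members and lists were chosen with earlier results of these data known. Alternatives were weighting by width, other minimum widths, a stricter overlap, 50 bp counted as equal, other windows and distances, and the omission of pairs near large assembly gaps.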

Additional observations from a re-analysis of the deposited data

How the results depend on the processing

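The lists give no height, so no alternative on height was run, and no paired analysis was possible because each condition is 1 library. No replicate could be left out for the same reason. Of 62 values under alternatives for 8 results, 52 stayed within the interval or 1.5 times the count of the value reported and 10 moved, with no change of sign among the differences whose interval excluded 0. Minimum widths of 150, 350 and 500 bp left 2117, 803 and 290 wider pairs, fewer or more because the rule itself changed, and at 150 bp 57.3% of pairs were wider. With a difference of 50 bp counted as equal, 43.4% of pairs were wider, the AP-1 difference between wider and narrower pairs was -20.5 percentage points, and 27.1% of pairs near genes lower after siFra-1 were wider. Within 50 kb of the TSS in place of 100 kb, 28.9% of pairs near genes lower after siFra-1 were wider, and the difference between genes higher and lower was 55.7 points. With the narrower pairs weighted to the siCTL widths of the wider pairs, added after the data were seen, the AP-1 difference was -9.00 points. The cause of these shifts was not tested. The AP-1 difference lay between -20.5 and -9.00 points, with an interval that excluded 0 under all 16 alternatives tried. The difference by array response lay between 36.8 and 55.7 points under 7 alternatives, none of them weighted by siCTL width. Of these 4 were added after the data were seen, among them the pair nearest to each TSS only (52.0), the omission of the viewpoint genes (40.2) and the omission of pairs near large gaps (39.7). The promoter difference lay between -0.687 and 0.838 points under 8 alternatives, always with an interval that included 0, so it has no firm sign. Without pairs near large gaps 1220 wider pairs remained and the median gain was 150 bp.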
